A study of Solanum lycopersicum with 6 samples.

Results

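Genes that lie close together on a tomato chromosome and whose transcripts differed the same way between 2 kinds of fruit wall are described here. They were found from the deposited identifiers and values alone. A tomato identifier starts with its chromosome, followed by a locus number, and locus numbers follow the order along the chromosome. Rows of the deposited table on chromosomes 1 to 12 were put in that order. A run was kept where at least 4 successive rows had locus numbers no more than 10 apart and the same sign of the mean of jmj7 minus the mean of WT. Members were therefore selected on the jmj7 against WT difference itself, and that difference is given below as a description, with no test. The rule found 91 runs holding 396 genes, out of 8644 rows on numbered chromosomes and 8703 rows in all.

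RNA was sequenced from the pericarp, the fleshy wall of the tomato (Solanum lycopersicum) fruit, at its equator, at 38 days after anthesis. Plants of both groups were in the Ailsa Craig background and grew in a greenhouse, with 3 WT libraries and 3 libraries from transgenic lines labelled jmj7. The series title names the target as SlJMJ7, a histone demethylase, and sets the question within the control of ripening; how the lines were made, and how many lines or plants were pooled, is not stated. The labels do not explain the prefix of 1 set of data columns; the other set is named WT, so it was taken as jmj7 by elimination, and every direction below rests on that step. No source used here pairs an identifier with the targeted gene, so its level could not serve as a check of the labels. The table holds only genes that the authors had already called different, each with an absolute log2 fold change above 1, so a gene outside it shows only as a gap in the numbering.

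In plants, related genes often sit side by side as tandem arrays left by local duplication, and such copies can share regulatory sequence and expression. Genes of unrelated function can also share a chromatin environment, since histone marks such as methylation can cover several neighbouring genes, and histone demethylases remove such methyl groups. Tomato fruit is known for large shifts during ripening, when chloroplasts turn into chromoplasts and the cell wall loosens. Near-identical copies in an array can also share sequencing reads, and how such reads were assigned, as well as the strand setting, is not stated. Levels of single copies are therefore uncertain throughout.

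Of 8 tissue markers, 5 have a row, with the following levels in FPKM (fragments scaled by gene length and library size). RIN, a MADS-box regulator of ripening, stood at 0.532 FPKM in WT and 586 in jmj7, FUL1, a related factor, at 21.6 and 376, TAGL1, a further MADS-box gene, at 135 and 199.9, and PSY1, the fruit phytoene synthase of carotenoid synthesis, at 72.4 and 5689.7. CD1, a cutin synthase of the epidermis, had 10139 reads over the WT libraries and 0 in jmj7. The remaining markers, FUL2, CD2 and CER6, have no row in the table, so no level is known for them here. These shifts accompany every result below and their part in the runs was not tested. In whole pericarp, fewer cells of a type and less RNA per cell cannot be told apart.

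Of the 91 runs, 67 were lower and 24 higher in jmj7, and of the 396 genes 293 were lower and 103 higher. Higher rows made up 35.5% of all rows on numbered chromosomes and 26.0% of run genes. Runs took up 5.25% of all lower rows and 3.36% of all higher rows. The rule asks for at least 4 successive rows of the same direction, which favours the commoner direction, here lower. These shares therefore do not show which direction lies together more. With size factors recomputed over the table, which raise the median log2 fold change by 1.23, there were 29 higher and 56 lower runs. Most runs were short. There were 65 runs of 4 genes, 22 of 5, 3 of 6 and 1 of 8. Below the limit, 250 stretches held 3 rows each, 70 higher and 180 lower. The median absolute log2 fold change in the authors' deposited table was 3.04 in runs of 4 and 2.57 in stretches of 3, against 2.18 for rows with no such neighbour. These sets were not split by direction and differ in their share of lower rows. Outside runs, lower rows had a median of 2.70 and higher rows 1.73. Over all runs, lower members had a median of 3.42 and higher members 2.61, so members had the larger median in each direction.

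**Figure D1:**
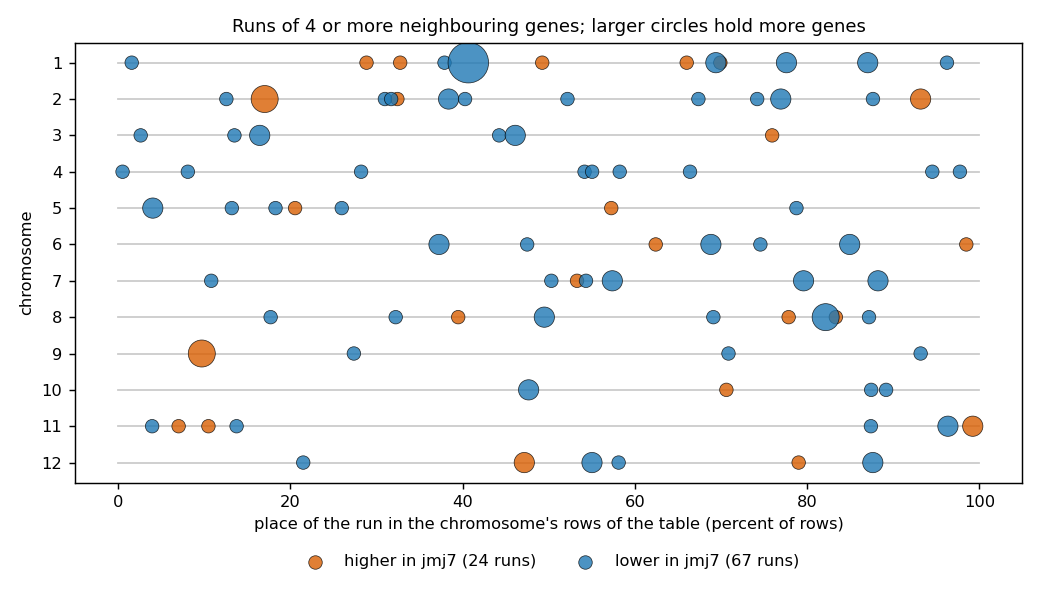
Place of each run along chromosomes 1 to 12; the horizontal axis is the rank of the run among that chromosome's rows in percent, the circle area grows with the number of genes, orange runs are higher and blue runs lower in jmj7. All 12 chromosomes hold runs, the 9 runs of chromosome 4 are all lower, and the largest circle is the run of 8 genes on chromosome 1.

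Every chromosome held runs, as the map of runs by chromosome shows. Their number ranged from 4 on chromosomes 9 and 10 to 13 on chromosome 2. The share of a chromosome's rows that lay in runs ranged from 2.77% on chromosome 3 to 5.89% on chromosome 2. Chromosome 4 held 9 runs, all lower, and 34.4% of its rows were higher. Chromosome 1 had the most higher runs, 5 of its 12. The next locus number was more than 10 away at 160 of 182 run ends. At the other 22 ends the next row had the opposite direction. Steps over 10 are also the commoner break in the table as a whole. There, 911 pairs of successive rows within 10 were opposed, while 1540 pairs were 11 to 20 apart, 2373 were 21 to 50, 1222 were 51 to 100 and 687 further. The kind of end is therefore not read as a trait of runs.

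Agreement between neighbours fell with distance. Successive rows up to 10 locus numbers apart had the same direction in 67.6% of 2810 pairs, with 585 pairs both higher, 1314 both lower and 911 opposed. This share was 61.3% of 1540 pairs at steps of 11 to 20 and 56.5% of 2373 pairs at 21 to 50. It was 55.2% of 1222 pairs at 51 to 100 and 54.6% of 687 pairs further apart. Since 35.5% of rows were higher and the rest lower, unrelated rows would also agree in over 50% of pairs. Among pairs of the same direction, the median difference in size was 1.25 on the authors' log2 fold change at steps up to 10 and 1.66 beyond 100. Within chromosomes, the share of agreeing pairs at steps up to 10 ranged from 61.1% on chromosome 9 to 72.2% on chromosome 6. Pairs that share a row are not independent, and no test was made.

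**Figure D2:**
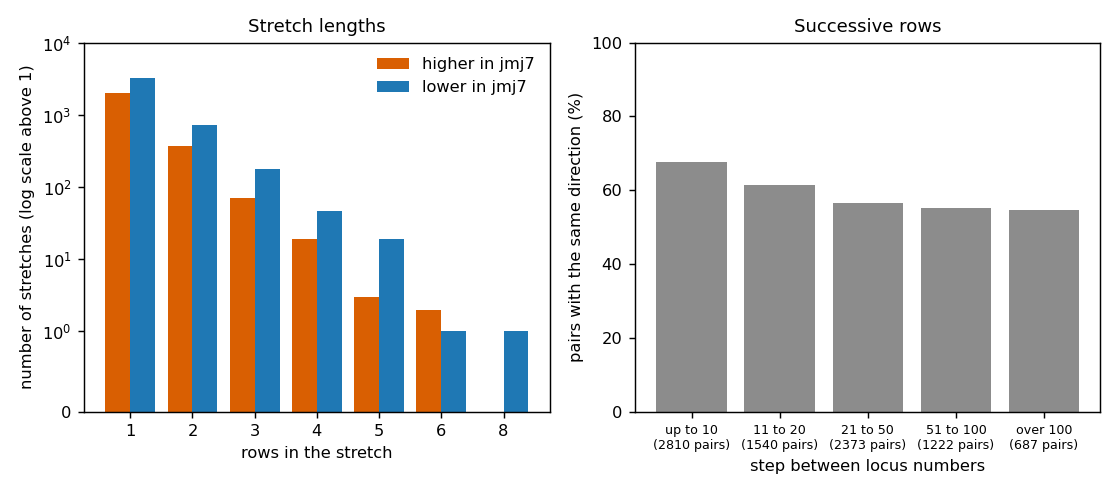
Left, number of stretches by the number of rows in them (log scale above 1), orange higher and blue lower in jmj7; right, share of successive rows with the same direction by the step between their locus numbers. Stretches of 4 or more are the runs described here, and the share falls from 67.6% at steps up to 10 to 54.6% beyond 100.

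Of the 396 genes, 345 passed the filter on low counts and were tested with edgeR's quasi-likelihood test over the whole table. All 345 were called at a Benjamini-Hochberg adjusted p under 0.05, 92 higher and 253 lower. The same holds for all 7622 tested genes, of which 37.2% were called higher and 62.8% lower, and nothing is read from the members' count. With the recomputed factors, 3023 genes of the table were called higher and 3368 lower, and 102 and 191 members. The libraries of both groups did not overlap for 392 members, beside 99.3% of all rows. In 15 members WT had 0 reads and in 38 members jmj7 had 0 reads. A group at 0 reads was held by 14.56% of higher members, beside 5.26% of higher rows outside runs. Among lower members the share was 12.97%, close to the 12.38% of lower rows outside runs. These shares were not tested. Size varied widely within runs. The difference between the largest and the smallest absolute log2 fold change of a run in the authors' deposited table had a median of 3.34 and ranged from 0.226 to 13.2. It was under 1 in 8 runs and over 4 in 37. In 41 runs, 10 higher and 31 lower, every member had an absolute log2 fold change of at least 2 in that table.

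**Figure D3:**
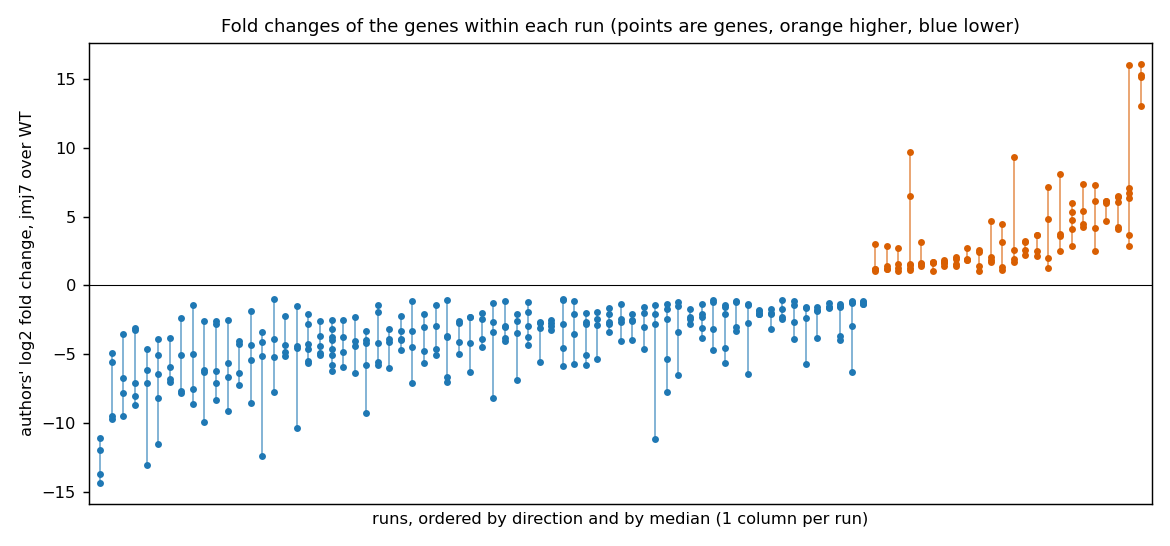
Fold changes of single genes (points) in each of the 91 runs (columns), as log2 of jmj7 over WT from the authors' deposited table; orange runs are higher and blue runs lower. The spread within a run has a median of 3.34, and the column at the far right is the run on chromosome 8 whose smallest log2 fold change is 13.1.

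The run of highest level among those higher in jmj7 was made of 4 genes on chromosome 8, Solyc08g066240 to Solyc08g066260. Its summed level was 3.31 ± 2.16 normalized counts in WT and 241268 ± 4102 in jmj7 (mean ± SD, n = 3). Solyc08g066240 held 4.31, 0.936 and 3.82 normalized counts in WT and 219103, 222064 and 226629 in jmj7, with a log2 change of 16.07 ± 0.435 (SE). Solyc08g066250 held 0.861, 0 and 0 normalized counts in WT and 10741, 10993 and 11399 in jmj7, with a 38969-fold higher level in jmj7 (exact 95% counting interval 6994 to 1539240.0). Both genes were close to 0 in every WT library, and the groups did not overlap. Solyc08g066245 held 0, 0 and 0 normalized counts in WT and 6400.2, 6161 and 6296 in jmj7, and Solyc08g066260 held 0, 0 and 0 normalized counts in WT and 1331, 1329 and 1358 in jmj7. The former had a level at least 7429.9-fold higher in jmj7 and the latter a level at least 1578-fold higher in jmj7, against a floor of 3 reads over the WT group. Per length, their levels in jmj7 ran from 25.7 FPKM in Solyc08g066260 to 3479 in Solyc08g066240. This array was listed with earlier results of these data known. No source used here names its genes.

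A run of 6 genes on chromosome 2, Solyc02g065230 to Solyc02g065280, was the longest among the higher runs, together with a run on chromosome 9. It summed to 969 ± 27.8 normalized counts in WT and 24889 ± 459.6 in jmj7 (mean ± SD, n = 3). Solyc02g065240 held 931, 972 and 924 normalized counts in WT and 11774, 12328 and 12302 in jmj7, with a log2 change of 3.69 ± 0.0412 (SE). Solyc02g065260 held 0, 0 and 0 normalized counts in WT and 10472, 10693 and 10716 in jmj7, with a level at least 12514-fold higher in jmj7. The former was already present in WT, the latter had no WT read, and in jmj7 they reached 376 and 235 FPKM. Solyc02g065280 held 18.9, 27.2 and 28.3 normalized counts in WT and 2068, 1980.3 and 2176 in jmj7, with a log2 change of 6.38 ± 0.159 (SE). The other 3 members were weak: Solyc02g065250 and Solyc02g065270 had 0 WT reads and 0.996 and 4.29 FPKM in jmj7, and Solyc02g065230 had 0.0427 FPKM in WT and 0.225 in jmj7. The authors' deposited log2 fold changes spanned 13.2 in this run, the widest range of all 91.

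The run of 6 on chromosome 9, Solyc09g008160 to Solyc09g008200, combined large and small differences. Solyc09g008170 held 8.61, 2.81 and 5.35 normalized counts in WT and 4606, 4633 and 4741 in jmj7, with a log2 change of 9.66 ± 0.323 (SE). Solyc09g008175 held 20.7, 19.7 and 13.8 normalized counts in WT and 1629.8, 1604 and 1639.9 in jmj7, with a log2 change of 6.50 ± 0.183 (SE). Both were close to absent in WT. On their flanks, Solyc09g008160 held 1782, 1924 and 1926 normalized counts in WT and 3920.2, 4011 and 4074 in jmj7, with a log2 change of 1.09 ± 0.0413 (SE). Solyc09g008200 held 4770.1, 4618 and 4415 normalized counts in WT and 10816, 11401 and 11041 in jmj7, with a log2 change of 1.27 ± 0.037 (SE). These flanking genes were abundant in both groups, and their libraries did not overlap. Solyc09g008190 and Solyc09g008180 had log2 fold changes of 1.58 and 1.46.

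In a run of 4 on chromosome 10, 1 gene reached 3016 FPKM in jmj7 and the other 3 stayed at or below 19.1. Solyc10g080900 held 603, 611 and 661 normalized counts in WT and 98118, 98868 and 100885 in jmj7, with a log2 change of 7.31 ± 0.0431 (SE). In the same run, PIN7 (Solyc10g080880), an auxin efflux carrier, held 51.7, 36.5 and 35.9 normalized counts in WT and 740.3, 751 and 785 in jmj7, with a log2 change of 4.19 ± 0.139 (SE). Its libraries did not overlap either. Solyc10g080890 stood at 4.95 FPKM in WT and 19.1 in jmj7, and Solyc10g080870 had 0 WT reads and 0.223 FPKM in jmj7.

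Lipoxygenases oxidise polyunsaturated fatty acids, and LOXE (Solyc01g099160) lay in a higher run of 4 on chromosome 1. This gene held 228, 243 and 257 normalized counts in WT and 3089, 2928 and 2872 in jmj7, with a log2 change of 3.61 ± 0.0626 (SE). Solyc01g099150 held 1.72, 7.49 and 8.4 normalized counts in WT and 1588, 1676 and 1621 in jmj7, with a log2 change of 8.07 ± 0.327 (SE). The neighbour was nearly silent in WT, whereas LOXE was not. Solyc01g099140 and Solyc01g099163 had log2 fold changes of 2.47 and 3.74. Of the other listed lipoxygenases, LOXC and LOXB were higher and LOXF lower, and none of the 3 lay in a run.

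Fold changes differed by 0.406 at most, in the authors' deposited table, in a further higher run. Solyc02g092600 to Solyc02g092640, 5 genes on chromosome 2, had edgeR log2 fold changes of 1.68, 1.83, 1.73, 1.59 and 1.43 in order along the chromosome. The most abundant of them, Solyc02g092640, held 1498, 1603 and 1628 normalized counts in WT and 4210.2, 4271 and 4231 in jmj7. Its groups did not overlap, and the run summed to 2347 ± 106 normalized counts in WT and 6781 ± 51.2 in jmj7 (mean ± SD, n = 3). On chromosome 7, the higher run Solyc07g051860 to Solyc07g051890 was low in WT in all 4 members, and its log2 fold changes in the authors' deposited table ranged from 4.22 to 7.35. Solyc07g051880 held 11.2, 12.2 and 9.93 normalized counts in WT and 1878, 1771 and 1741 in jmj7, with a log2 change of 7.34 ± 0.232 (SE). The other 3 reached between 0.476 and 7.7 FPKM in jmj7.

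In other long or steep higher runs most members were weak. The 5 genes Solyc12g038645 to Solyc12g038660 summed to 0.542 ± 0.472 normalized counts in WT and 51.4 ± 2.91 in jmj7 (mean ± SD, n = 3), and a single one of them passed the low-count filter. In the run Solyc11g073140 to Solyc11g073180, Solyc11g073160 held 179, 168 and 217 normalized counts in WT and 1373, 1339 and 1475 in jmj7, with a log2 change of 2.88 ± 0.0795 (SE). It reached 29.6 FPKM in jmj7. The other 4 members stayed at or below 1.34 FPKM in both groups, and Solyc11g073170 had groups that overlap. In the run Solyc12g089293 to Solyc12g089300, Solyc12g089300 held 128, 88.9 and 110.0 normalized counts in WT and 2654, 2924 and 3006 in jmj7, with a log2 change of 4.70 ± 0.0925 (SE). It reached 267 FPKM in jmj7. Its 3 neighbours, whose identifiers do not end in 0, stayed at or below 1.46 FPKM.

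**Figure D4:**
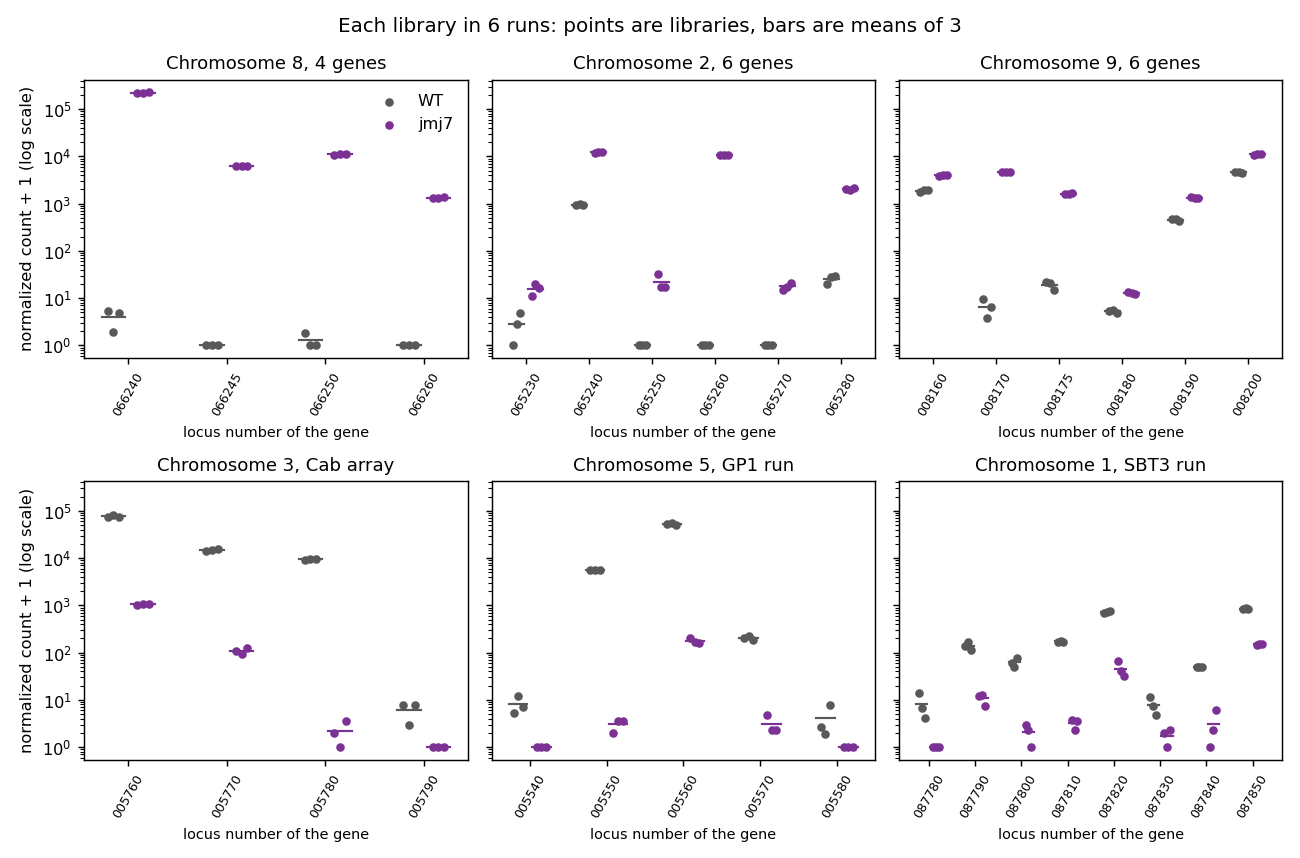
Normalized counts plus 1 (log scale) of every member of 6 runs, by gene in order along the chromosome; points are single libraries, grey WT and purple jmj7, and short bars are means of 3. In the upper row all members are higher in jmj7 and in the lower row all are lower, with levels within a run that differ by orders of magnitude.

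Among the lower runs, the one of highest summed level belongs to photosynthesis. Chlorophyll a/b-binding (Cab) proteins carry the antenna pigments of the photosystems, and in tomato their genes form tandem arrays. In the Cab array of chromosome 3, Solyc03g005760 held 75209, 80109.7 and 74357 normalized counts in WT and 1041, 1049 and 1070.5 in jmj7, with a log2 change of -6.18 ± 0.0421 (SE). Solyc03g005770 held 14165, 15126 and 15444 normalized counts in WT and 107, 93.5 and 125 in jmj7, with a log2 change of -7.10 ± 0.092 (SE). Solyc03g005780 held 9258, 9770.1 and 9785 normalized counts in WT and 0.938, 0 and 2.53 in jmj7, with an 8376-fold lower level in jmj7 (exact 95% counting interval 2866 to 40619). All 3 were high in WT, and the residual level in jmj7 differed between copies, at 50.4, 4.6 and 0.0335 FPKM. The last member, Solyc03g005790, had 0.545 FPKM in WT and 0 reads in jmj7.

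The Cab array of chromosome 2 gave a run of 4, Solyc02g070970 to Solyc02g071000, whose first 3 members were listed as Cab genes. It summed to 15815 ± 755 normalized counts in WT and 2.0 ± 2.42 in jmj7 (mean ± SD, n = 3). Solyc02g070970 held 5191, 5789.9 and 5785 normalized counts in WT and 0.938, 0 and 0 in jmj7, with a 14625-fold lower level in jmj7 (exact 95% counting interval 2625 to 577673). Solyc02g070990 held 4422, 4625 and 4745 normalized counts in WT and 0, 0 and 0 in jmj7, with a level at least 4013-fold lower in jmj7. Solyc02g070980 and Solyc02g071000 had 222 and 178 FPKM in WT, with 2 and 3 reads over the jmj7 libraries. Solyc02g070940 and Solyc02g070950 of the same array lie a step of 20 away and so form a pair outside the run. They were lower too, with log2 fold changes of -6.98 and -8.53. The reference gene table lists Cab-1A, Cab-1B, Cab-1C and Cab-1D within a stretch of 5 protein-coding genes, and copies were not matched to single identifiers. Of 9 listed Cab genes all were lower, and 7 lay in runs.

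On chromosome 6, psaD (Solyc06g054260), a subunit of the photosystem I reaction centre, lay in a lower run of 5. This gene held 11916, 12090.1 and 11963 normalized counts in WT and 1945, 1962 and 1919.5 in jmj7, with a log2 change of -2.63 ± 0.0376 (SE). Its groups did not overlap, and per length it stood at 1083 FPKM in WT. Solyc06g054250 had 39.6 FPKM in WT and 8.7 in jmj7, and the other 3 were at or below 3.0 FPKM in WT.

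Cell wall genes were represented by GP1 (Solyc05g005560), the non-catalytic beta subunit of polygalacturonase, in a lower run of 5 on chromosome 5. This gene held 52904, 54048 and 50503 normalized counts in WT and 205, 166 and 162 in jmj7, with a log2 change of -8.19 ± 0.0743 (SE). Solyc05g005550 held 5676, 5602 and 5468 normalized counts in WT and 0.938, 2.63 and 2.53 in jmj7, with a log2 change of -11.42 ± 0.645 (SE). The jmj7 libraries of both genes lay far below every WT library. Solyc05g005570 had 5.52 FPKM in WT and 0.0394 in jmj7, and the outer members, Solyc05g005540 and Solyc05g005580, had 0.222 and 0.0722 FPKM in WT and 0 reads in jmj7. The reference gene table lists AROGP3, AROGP2 and GP1 next to each other on this chromosome.

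The longest run of all, 8 genes from Solyc01g087780 to Solyc01g087850, ends in SBT3, a subtilase (a serine protease), and the reference lists 6 subtilase genes (sbt3 and sbt4a to sbt4e) within a stretch of 9 protein-coding genes on chromosome 1. It summed to 1986 ± 39.8 normalized counts in WT and 209 ± 17.1 in jmj7 (mean ± SD, n = 3). SBT3 (Solyc01g087850) held 816, 858 and 844 normalized counts in WT and 146, 149 and 149 in jmj7, with a log2 change of -2.50 ± 0.088 (SE). Solyc01g087810 held 166, 176 and 170.4 normalized counts in WT and 2.81, 1.32 and 2.53 in jmj7, with a log2 change of -6.15 ± 0.609 (SE). SBT3 had the smallest change of the tested members and Solyc01g087810 the largest, and both had groups that did not overlap. Per length, the most abundant members in WT were Solyc01g087820 and SBT3, at 15.5 and 15.3 FPKM. Those 8 genes were at or below 1.83 FPKM in jmj7.

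The runs of MMP2, mcpi, LAPA1, the ERF genes, AADC1A and DFR were chosen after their values were seen. MMP2 (Solyc04g005040) and MMP1 (Solyc04g005050), matrix metalloproteinases, opened a run of 4 on chromosome 4. MMP2 held 406, 428 and 440.0 normalized counts in WT and 0, 1.32 and 2.53 in jmj7, with a 371-fold lower level in jmj7 (exact 95% counting interval 127 to 1799). MMP1 held 381, 406 and 419 normalized counts in WT and 16, 19.8 and 25.3 in jmj7, with a log2 change of -4.33 ± 0.217 (SE). WT levels of the pair were alike per length, at 22 and 20.6 FPKM. Solyc04g005060 and Solyc04g005070 had log2 fold changes of -5.38 and -1.86. The metallocarboxypeptidase inhibitor gene mcpi (Solyc07g007250) held 222, 227 and 189 normalized counts in WT and 0, 0 and 0 in jmj7, with a level at least 184-fold lower in jmj7. LAPA1 (Solyc12g010020), a leucine aminopeptidase, held 25.8, 34.6 and 23.7 normalized counts in WT and 0, 0 and 0 in jmj7, with a level at least 24.1-fold lower in jmj7. No jmj7 library held a read of either gene. Each lay in a lower run of 4 genes, on chromosomes 7 and 12.

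Transcription factors formed an array on chromosome 3. ERF-B4, ERF-B5 and ERF5, ethylene response factors, are side by side in the reference and lay in a lower run of 5. ERF-B4 (Solyc03g093540) held 709, 739 and 743 normalized counts in WT and 11.3, 19.8 and 17.7 in jmj7, with a log2 change of -5.53 ± 0.231 (SE). ERF-B5 (Solyc03g093550) held 2252, 2209 and 2245 normalized counts in WT and 127, 103 and 142 in jmj7, with a log2 change of -4.17 ± 0.0895 (SE). ERF5 (Solyc03g093560) held 1731, 1562 and 1564 normalized counts in WT and 415, 441 and 439 in jmj7, with a log2 change of -1.91 ± 0.0622 (SE). The fold shrank along the array from ERF-B4 to ERF5, and in each of the 3 genes the groups did not overlap. Solyc03g093530 and Solyc03g093535 were weak, at 3.33 and 3.81 FPKM in WT.

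In a lower run of 5 on chromosome 7, ppc2 (Solyc07g062530), a phosphoenolpyruvate carboxylase, held 23439.6, 23810.5 and 23995 normalized counts in WT and 1806, 1797 and 1783 in jmj7, with a log2 change of -3.72 ± 0.0372 (SE). GAME7 (Solyc07g062520), a cytochrome P450 of steroidal glycoalkaloid synthesis, held 887, 825 and 809 normalized counts in WT and 215, 212 and 228 in jmj7, with a log2 change of -1.95 ± 0.080 (SE). They have different roles and adjoin in the reference as well. The smallest change of this run, in Solyc07g062490, was -1.20 ± 0.365 (SE), and it became 0.023 with size factors recomputed over the table. Solyc07g062510 had 29 reads over WT and 1 over jmj7, with groups that overlap.

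The run of 6 on chromosome 8, Solyc08g080130 to Solyc08g080180, held HMGS1 (Solyc08g080170), the HMG-CoA synthase of the mevalonate pathway, and PLDb1 (Solyc08g080130), a phospholipase D. HMGS1 held 1619.6, 1785 and 1837 normalized counts in WT and 91, 97.4 and 92.4 in jmj7, with a log2 change of -4.23 ± 0.102 (SE). PLDb1 held 674, 720.0 and 659 normalized counts in WT and 160.5, 162 and 156 in jmj7, with a log2 change of -2.10 ± 0.0906 (SE). Between them, Solyc08g080140 held 3444, 3772 and 3652 normalized counts in WT and 82.6, 65.8 and 94.9 in jmj7, with a log2 change of -5.47 ± 0.107 (SE). This unnamed gene had the highest WT level of the run, 169 FPKM. A run of 5 elsewhere on the same chromosome held AADC1A (Solyc08g068680), an aromatic amino acid decarboxylase, at 3.25 FPKM in WT and 0.462 in jmj7. Its neighbour Solyc08g068690 held 6391, 5669 and 5468 normalized counts in WT and 374, 413 and 363 in jmj7, with a log2 change of -3.93 ± 0.0652 (SE). On chromosome 2, DFR (Solyc02g085020), the dihydroflavonol reductase of anthocyanin synthesis, held 34.4, 40.3 and 32.9 normalized counts in WT and 1.88, 0 and 0 in jmj7, with a 46.6-fold lower level in jmj7 (exact 95% counting interval 12.6 to 389). Each of its 3 neighbours in the run kept more reads in jmj7, with log2 fold changes of -3.06, -2.71 and -2.68.

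The remaining runs named by level or size hold no name that could be checked. Solyc04g007770 held 96407, 87714 and 85743 normalized counts in WT and 14200.3, 14065 and 14473 in jmj7, with a log2 change of -2.66 ± 0.037 (SE). Its 3 neighbours in the run Solyc04g007767 to Solyc04g007790 stood at or below 14.7 FPKM in WT, against 10339 for Solyc04g007770. Solyc02g077590 held 677, 615 and 596 normalized counts in WT and 0, 2.63 and 0 in jmj7, with an 822-fold lower level in jmj7 (exact 95% counting interval 227 to 6788). The whole run of that gene, from Solyc02g077570, had 3 reads in jmj7.

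Levels differed strongly between members of a run. The ratio of the highest to the lowest FPKM in the higher group had a median of 37.4 over the 91 runs, and it was over 10 in 72. In 59 runs, over 50% of the summed FPKM came from 1 member, with a median of 57.4%. Summed normalized counts of the higher group had a median of 4691 in the higher runs and 1707 in the lower runs. Outside runs, higher rows also had the higher median level, 18.9 FPKM in jmj7, against 4.49 FPKM in WT for lower rows.

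Further features were compared with the other 8248 rows as a description. Genes in runs were shorter: their median length, estimated from count over FPKM and relative to the median of all rows, was 0.78, against 1.01 for the other rows and 0.983 for the 4274 other rows with a neighbour within 10. Of the members, 13.4% had a locus number that does not end in 0, against 6.41% of the other rows. The rule bears on this share, since it limits the step between locus numbers and such identifiers lie between multiples of 10. Version 1 of the identifier was held by 34.8% of members and 19.8% of the others. The 53 members whose locus number does not end in 0 all carry version 1, so the rule bears on this share too. Median levels in the higher group were close, at 7.17 and 7.49 FPKM. The median coefficient of variation between libraries of that group was 9.52% in members and 7.36% in the others. Members hold a larger share of lower rows, and within a direction the gap was smaller. It was 10.2% in lower members against 9.52% in other lower rows, and 5.25% in higher members against 4.38% in other higher rows. Split by direction, higher members had a median of 11.9 FPKM in jmj7, against 18.9 for other higher rows, and lower members had 6.65 FPKM in WT, against 4.49 for other lower rows. Their place along the locus numbers was alike, at a median of 11% and 10.5% of the numbering from the nearer end.

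Of 59 listed genes, 33 have a row in the table and 12 lay in runs, which held 4.58% of all rows on numbered chromosomes. Most lists name known or likely arrays or clusters. The listed lipoxygenases lie at separate places on chromosome 1, and the ripening neighbours of chromosome 9 are spread from Solyc09g089580 to Solyc09g091550, so neither list is a single array. The chromosome 8 array of 4 genes was listed after it was seen in earlier results of these data, so its place in a run was known in advance. Apart from the 7 Cab genes, LOXE and the 4 genes of the chromosome 8 array, none lay in a run. Of 8 listed glycoalkaloid genes on chromosomes 7 and 12, 6 have a row and all 6 were lower, in stretches of at most 2. The 5 listed JRE genes of chromosome 1 had 1 row, lower, and the 6 polyphenol oxidase genes 1 row, lower. Of 4 small heat-shock protein genes of chromosome 6, 3 have a row and all were higher, 2 of them in a stretch of 3. The 6 proteinase inhibitor genes of chromosome 9 had 1 row, higher, and of the 4 ripening neighbours on that chromosome 2 were higher and 2 lower. The 3 pectin methylesterase genes and the 6 terpene synthase genes have no row in the table, so no direction is known for them here.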

How the data were processed

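RNA-seq libraries of WT and jmj7 pericarp, 3 each, were compared. According to the submitters' processing notes, the reads were processed with HISAT2. Its version, the build, the counting tool and strandedness are not given in the sources examined. The deposited table holds read counts, FPKM and p-values for each gene, per the file headers, beside the authors' log2 fold change. Its normalized counts, a deposited signal, were each library's counts over a single size factor. The table was selected before deposit. Its genes took 7508105 to 15254146 reads per library, and the deposited size factors were 1.16, 1.07 and 1.31 in WT and 1.07, 0.759 and 0.79 in jmj7. Replicates of a group differed by more than sampling noise (mean chi-square per gene 1.63 to 3.63), so none was taken as the same library. Nothing states that they came from separate plants. SDs therefore describe the spread between these libraries, and p-values weigh group differences against variation between these libraries.

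Runs were formed as the rule states with pandas 2.3.3 in Python 3.11.15. All of the table was fitted with edgeR 4.0.16 in R 4.3.3 (quasi-likelihood, deposited size factors, filterByExpr with a minimum count of 10, prior count 0.125, Benjamini-Hochberg adjusted p under 0.05). The fit and the run finder were tested on simulated data. Folds against a group at 0 reads take 3 reads over the group as the floor, and ratios for 1 to 3 reads an exact 95% binomial interval, which both cover counting error only. Members, lists and named runs were chosen with earlier results of these data known. Named runs were, in each direction, the 5 longest (ties broken by the larger summed normalized count in the higher group, which took 3 of 19 lower runs of 5 genes), the 3 of highest level, the 3 with the largest minimum fold, and those holding a listed gene; runs with checked symbols were added after their values were seen. Symbols come from general knowledge and were printed where the reference gene table (SLM_r2.1, without Solyc identifiers) has them on the same chromosome in a compatible order. Version suffixes of identifiers are omitted. Alternatives were other scalings, filters, steps and run lengths, DESeq2 1.42.0, and leaving out each library. The number in a column name only names a library.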

Additional observations from a re-analysis of the deposited data

How the results depend on the processing

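The number of runs depends on the limits set. With steps up to 20 there were 233 runs with 1091 genes (53 higher, 180 lower), and with steps up to 30 there were 363 with 1788 genes (70 higher, 293 lower), the longest of 13. A shortest run of 3 gave 341 runs with 1146 genes (94 higher, 247 lower), and of 5 gave 26 with 136 genes (5 higher, 21 lower). Taking out rows below the low-count filter left 57 runs with 240 genes, and 39 of these runs were lower. Depth limits the 51 members below that filter, whose direction rests on few reads. Taking out rows under 5 FPKM in both groups left 14 runs with 57 genes (4 higher, 10 lower), the longest of 5. Leaving out identifiers not ending in 0 left 60 runs, 12 of them higher. TMM and FPKM kept all 396 members, and recomputed size factors kept 348, since 18 lower members changed sign. The scaling moved the median log2 fold change by 0.32 (TMM), 1.23 (recomputed), -1.04 (total reads) and -0.56 (FPKM). Leaving out any 1 library kept all 396. Of 927 log2 fold changes of 78 named genes under alternatives, 924 kept direction and call. Solyc07g062490 reversed to 0.023 and Solyc04g007780 lost its call with recomputed factors, and Solyc09g008160 lost it with total reads. Of the run genes, 290 were called in their direction with recomputed factors, beside 3023 higher and 3368 lower among 7554 tested genes of the table. Without the filter, and likewise with DESeq2, all 396 were called. In both settings every gene of the table was called too, 3087 higher and 5616 lower of 8703, so nothing is read from these counts. With a replicate block on the column number, 345 run genes were called, beside 2837 higher and 4785 lower of 7622 tested genes, as without it. Deviations of same-numbered libraries correlated between -0.03 and 0.02, so no shared shift by number was seen. Whether same-numbered libraries were handled together cannot be told from these values.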
